A study of Mus musculus with 6 samples.

Results

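The 10 genes described here encode proteins of the nucleolus that make, modify and process ribosomal RNA. They were chosen by name, as the entries of the deposited expression table whose Ensembl identifier belongs to Polr1a, Nop56, Nop58, Fbl, Dkc1, Nhp2, Nop10, Gar1, Ncl or Npm1, and they make up 10 of its 55774 entries. All 10 were expressed highly enough in mouse blastocysts to be tested, and they lie on 7 chromosomes. None passed the thresholds for a call between the groups, and neither did any other gene tested. The groups did not overlap in Dkc1 and Polr1a, and 18.1% of all genes tested had such a gap in the same direction.

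RNA was sequenced from 6 pools of 10 blastocysts, taken from wild-type ICR mice whose dams were 6 to 8 weeks old. The oEV-EMT group (3 pools) spent 75 hours in CZB medium with extracellular vesicles from the Fallopian tubes of women with endometriosis, and the oEV-ctrl group (3 pools) in the same medium with vesicles from women without it, both at 1e+10 particles per mL. The vesicles are human and the embryos are murine, and the labels and the study's methods name different conditions for the women who gave the control vesicles. Nothing states that the pools came from separate matings or vesicle preparations, so the p-values measure only the spread between these pools, and in pooled embryos fewer cells of a type cannot be told apart from less RNA per cell.

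Ribosomal RNA is transcribed in the nucleolus by RNA polymerase I as one long precursor, which is then cut, trimmed and chemically modified while ribosomal proteins are added. Most modifications are placed by small nucleolar RNAs, which pair with the precursor and carry a fixed set of proteins. Box C/D RNAs carry Nop56, Nop58, Snu13 and the methyltransferase fibrillarin, encoded by Fbl, and guide ribose methylation. Box H/ACA RNAs carry Nhp2, Nop10, Gar1 and the pseudouridine synthase dyskerin, encoded by Dkc1, and guide pseudouridylation. In the mouse embryo the nucleolus of the zygote is a compact precursor body, and active nucleoli form around it during cleavage.

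Several of these genes hold small nucleolar RNAs inside their own introns, so that a single transcript gives both a protein of the complex and an RNA that such proteins bind. In the GENCODE M21 annotation of GRCm38, 13 small nucleolar RNA genes lie inside Ncl (3), Nop56 (5), Nop58 (4) and Dkc1 (1), all on the strand of the host. A selection of 5 is shown, at least 1 of each class and with the host named, because they show what the hosts carry. Capitals mark TGATGN within the first 20 bases together with CTGA within the last 20 bases, the letters of boxes C and D, or else ACA followed by 3 bases at the end, the letters of box ACA. Only the strand of the RNA was searched. Of 1506 annotated small nucleolar RNA sequences, 23.5% hold the first pair and 18.0% the second. A match describes the letters and is not evidence of a working site.
Snord82, in Ncl, chr1:86356261-86356330, minus strand: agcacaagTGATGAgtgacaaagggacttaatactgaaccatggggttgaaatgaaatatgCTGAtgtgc
Snord110, in Nop56, chr2:130275506-130275573, plus strand: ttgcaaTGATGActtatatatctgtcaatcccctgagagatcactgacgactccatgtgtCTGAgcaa
Snord11, in Nop58, chr1:59704790-59704873, plus strand: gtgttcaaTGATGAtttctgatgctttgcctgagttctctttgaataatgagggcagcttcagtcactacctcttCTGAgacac
Snora75, in Ncl, chr1:86351169-86351301, minus strand: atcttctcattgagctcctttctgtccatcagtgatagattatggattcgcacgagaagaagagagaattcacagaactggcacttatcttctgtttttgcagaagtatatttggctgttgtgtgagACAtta
Gm24451, in Nop56, chr2:130276237-130276369, plus strand: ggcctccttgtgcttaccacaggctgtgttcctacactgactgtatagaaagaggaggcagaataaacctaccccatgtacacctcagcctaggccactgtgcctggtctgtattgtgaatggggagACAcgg
The libraries were made from polyadenylated RNA, in which small nucleolar RNAs are poorly captured, and their values were low. FPKM, the unit of the table, is fragments scaled by transcript length and by the fragments of the library, so it allows levels of different genes to be set side by side. Among the 13 intronic RNAs, Gm24451 reached 1 FPKM in 3 libraries, with 3.11, 0.882 and 0.781 in oEV-EMT 1 to 3 and 0.776, 1.202 and 1.38 in oEV-ctrl 1 to 3. Snord82 had 0.214, 0.153 and 0.206 FPKM in oEV-EMT and 0.201, 0.497 and 0.528 in oEV-ctrl. The groups overlapped in both. Snord11 reached 1.05 FPKM in oEV-EMT 1 and Snord57, in Nop56, 3.87 FPKM in the same library, and the 5 other libraries lay at or below 0.933 and 0.102 FPKM. Over the whole table, 73 of 1507 small nucleolar RNA genes reached 1 FPKM in at least 3 libraries, so the deposited values say little about the guide RNAs themselves.

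The values behind these genes come from libraries of unequal depth. Read totals are not given, but the spacing of the lowest values in the table gives relative depths of 2.07, 1.21 and 1.42 for oEV-EMT 1 to 3 and 1.00, 1.37 and 1.82 for oEV-ctrl 1 to 3, so that the deepest and the shallowest library carry the same number. The FPKM summed to between 1293175 and 1551567, and new_gene48, an entry without annotation, took 15.3% to 31.5% of that total, most in oEV-ctrl 1. Markers of trophectoderm (8 of 8), epiblast (6 of 6) and primitive endoderm (6 of 6), the cell types of a blastocyst, reached 1 FPKM in at least 3 libraries. The same held for 2 of 8 oocyte markers, 0 of 8 cumulus and granulosa markers, 0 of 5 oviduct markers and 1 of 5 blood markers. The summed epiblast markers lay between 106 and 145 FPKM in oEV-EMT and between 56.9 and 102 FPKM in oEV-ctrl, the summed oocyte markers between 3.95 and 7.04 FPKM and between 2.42 and 3.37 FPKM, and mitochondrially encoded genes held 3.93% to 4.84% and 5.96% to 7.45% of the FPKM. None of these 3 ranges overlapped between the groups. The summed trophectoderm markers (3136 to 4746 FPKM in oEV-EMT, 3082 to 4836 in oEV-ctrl) and primitive endoderm markers (135 to 262 and 180 to 236) did overlap. Single markers disagreed: Nanog, Pou5f1 and Fgf4 were higher in every oEV-EMT library, whereas Sox2, Klf2 and Tdgf1 overlapped. Among primitive endoderm markers Gata4 and Sox7 were higher in every oEV-EMT library, whereas Gata6, Sox17, Pdgfra and Dab2 overlapped. Their sum was mostly Dab2, with 104 to 215 FPKM. Among oocyte markers Zp3 was higher in every oEV-EMT library and Zp2 overlapped. The part of these differences in the values below was not tested.

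The 10 genes spanned a wide range of levels in the blastocyst. Npm1 was the most abundant, with a mean of 913 FPKM over the 6 libraries, above 98.6% of the 11924 genes tested. Nop10 (203 FPKM) and Nhp2 (182 FPKM) followed, with overlapping ranges, and both lay below Npm1 in every library. Nop56 (122 FPKM), Nop58 (88.9 FPKM), Ncl (73.4 FPKM) and Dkc1 (61.5 FPKM) formed a run in which each range overlapped the next. The remaining genes were set apart from their neighbours in all libraries, namely Fbl at 35.9 FPKM, Gar1 at 12.0 FPKM and Polr1a at 4.04 FPKM, the last above 33.7% of the genes tested. Genes of one complex therefore differed in level, as Gar1 and Nop10, both core proteins of box H/ACA particles, shared no value.

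**Figure D1:**
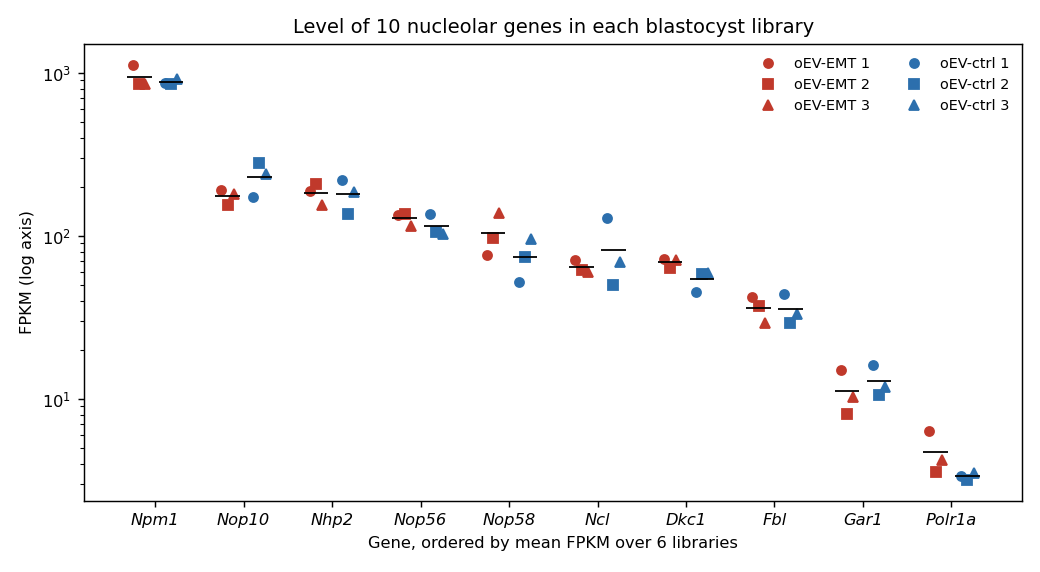
FPKM on a log axis for each of the 10 genes, ordered by their mean over 6 libraries, with 1 point per library (red for oEV-EMT, blue for oEV-ctrl, the shape giving the library number) and a line at each group's mean. Npm1 lies above all other genes and Polr1a below them, and in most genes the red and blue points intermix.

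To ask whether vesicles from women with endometriosis went along with a different level of these transcripts, the groups were compared as log2(FPKM + 1) with limma across all 11924 genes that reached 1 FPKM in at least 3 libraries. A call required an adjusted p of at most 0.05 and a log2 fold change, oEV-EMT minus oEV-ctrl, of 1 or more in either direction. The added 1 shrinks the fold change of a gene with low FPKM. Of the 10 genes, 0 were called, as were 0.0% of all genes tested (limma with Benjamini-Hochberg adjustment). Without adjustment, 0 of the 10 had a p of at most 0.05, against 12.8% of all genes higher in oEV-EMT and 2.55% lower. The 3 oEV-EMT values were each higher than the 3 oEV-ctrl values in 2 of the 10, Dkc1 and Polr1a, against 18.1% of all genes, and each lower in 0 of the 10, against 4.34%. With 3 libraries a group, an exact two-sided permutation test of a single gene cannot give a p below 0.1.

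The log2 fold change was above 0 in 7 of the genes and below 0 in 3, with a median of 0.07. The median over all genes tested was 0.17, which moved to 0.01 with median-of-ratios scaling, so differences are also given relative to it. Against that median, 3 of the 10 lay above and 7 below, with a relative median of -0.11, inside the range from -0.22 to 0.23 that held the middle 50% of all genes. The sign of this median was not stable, at 0.04 without oEV-ctrl 1 and 0.04 without a filter on low values. The 95% interval of the log2 fold change lay between -1 and 1 in 9 of the 10, the exception being Nop58 with an upper bound of 1.11. The values are compatible with any change inside its gene's interval, in either direction, at this precision. For Polr1a, whose values are low, the added 1 means that the interval on this scale allows a larger change in FPKM.

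**Figure D2:**
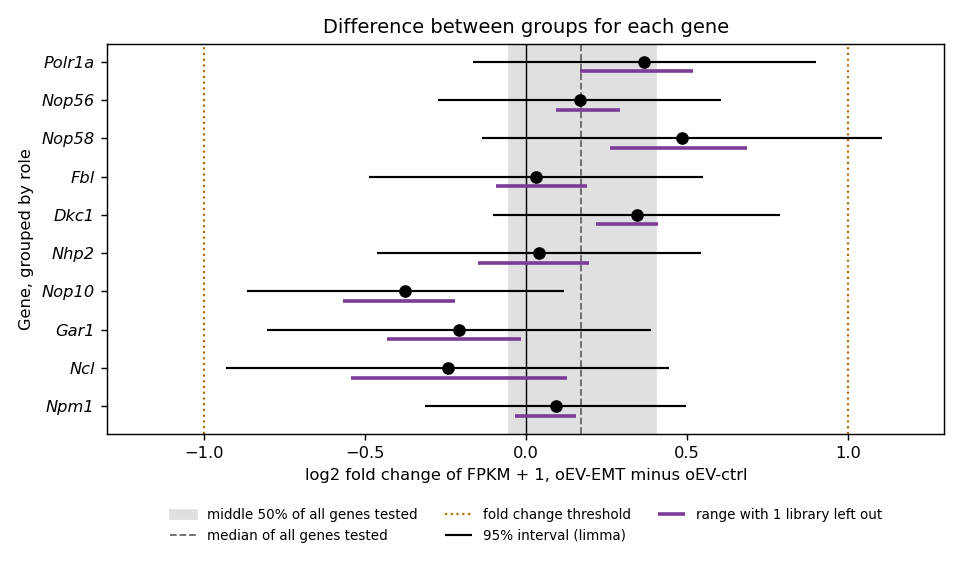
Log2 fold change of FPKM + 1, oEV-EMT minus oEV-ctrl, for each gene (points) with its 95% limma interval (black) and the range when 1 library at a time was left out (purple). The dashed line is the median of all genes tested, grey the middle 50% of them and the dotted lines the fold change threshold. All intervals cross 0, and Nop58 has the only one that crosses 1.

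Polr1a (ENSMUSG00000049553, chromosome 6 of GRCm38, 71909053 to 71984935, plus strand) encodes the largest subunit of RNA polymerase I, which carries part of its catalytic centre. Its FPKM was 6.39, 3.54 and 4.24 in oEV-EMT 1 to 3 and 3.35, 3.18 and 3.52 in oEV-ctrl 1 to 3. The oEV-EMT values were all higher, but the closest pair, 3.54 and 3.52, was nearly equal, and oEV-EMT 1, the deepest library, stood above the rest. Its log2 fold change was 0.37 with a standard error of 0.24 (limma, adjusted p = 0.489), and 0.17 without oEV-EMT 1. The groups overlapped after median-of-ratios or upper quartile scaling, at 0.21 and 0.16, and after scaling to a total of 1000000 without new_gene48.

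Nop56 and Nop58 are the paired scaffold proteins of box C/D particles, and both host box C/D RNAs such as those shown above. Nop56 (ENSMUSG00000027405, chromosome 2, 130274430 to 130279313, plus strand) had 134, 136 and 115 FPKM in oEV-EMT and 136, 106 and 103 in oEV-ctrl. Its highest value, in oEV-ctrl 1, was matched by oEV-EMT 2, and its log2 fold change was 0.17 with a standard error of 0.20 (limma, adjusted p = 0.717), turning to -0.03 with median-of-ratios scaling. Nop56 shares stretches with 9 other genes, among them its own intronic RNAs and processed pseudogenes, and held 79.2% to 85.9% of the summed FPKM, with a log2 difference of the sum of 0.16. Nop58 (ENSMUSG00000026020, chromosome 1, 59684971 to 59719044, plus strand) had 76.6, 97.5 and 137 FPKM in oEV-EMT and 52.2, 74.4 and 95.1 in oEV-ctrl. The values spread widely in both groups, and oEV-ctrl 3 lay above oEV-EMT 1. The log2 fold change of Nop58 was the largest of the 10, at 0.49 with a standard error of 0.28, a 95% interval from -0.14 to 1.11 and an adjusted p of 0.431 (limma), and it was 0.22 with upper quartile scaling and 0.26 without oEV-ctrl 1 or without oEV-EMT 3.

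Fbl (ENSMUSG00000046865, chromosome 7, 28169710 to 28179269, plus strand) encodes fibrillarin, the enzyme that methylates ribose in the box C/D particle. The FPKM of Fbl was 42.5, 36.9 and 29.3 in oEV-EMT and 44.0, 29.4 and 33.2 in oEV-ctrl, so that the extremes of both groups nearly coincided. Between the groups the log2 fold change was 0.03 with a standard error of 0.23 (limma, adjusted p = 0.961), and its sign turned with the scaling. Part of the Fbl transcripts is shared with Tulp4 and with the processed pseudogene Gm5812, between which reads could be split. Fbl held 76.0% to 81.0% of the FPKM summed over the 3 genes, and the log2 difference of the sum was 0.01. Only 15.6% of the Tulp4 stretches are shared with Fbl, and Gm5812 reached at most 0.655 FPKM. The sum therefore also holds Tulp4 signal from sequence that Fbl lacks.

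Dkc1 (ENSMUSG00000031403, chromosome X, 75095854 to 75109777, plus strand) encodes dyskerin, the pseudouridine synthase of box H/ACA particles, which is also part of telomerase. Its FPKM was 71.9, 63.4 and 71.0 in oEV-EMT and 45.1, 58.6 and 59.1 in oEV-ctrl. All oEV-EMT values were above all oEV-ctrl values, by 63.4 against 59.1 at the nearest, and the lowest was in oEV-ctrl 1, the shallowest library. For Dkc1 the log2 fold change was 0.34 with a standard error of 0.20 (limma, adjusted p = 0.438), and it was 0.22 without oEV-ctrl 1. After median-of-ratios or upper quartile scaling it was 0.15 or 0.08 and the groups overlapped. Of 9 short genes annotated as miRNA that share stretches of sequence with Dkc1, 8 had values above 0. Each shares only 0.276% to 0.345% of the Dkc1 stretches, and FPKM divides by their short length. Dkc1 held 86.4% to 98.7% of the FPKM summed over them, with a log2 difference of the sum of 0.24. This sum therefore does not measure how many Dkc1 reads could be split. The end of Dkc1 overlaps the opposite-strand gene Mpp1 by 45 bases, and whether the counting used strand is not stated. Mpp1 was also higher in every oEV-EMT library, with 62.0, 49.3 and 50.9 FPKM against 33.7, 39.2 and 43.5 in oEV-ctrl. The part of this overlap in the Dkc1 values was not tested.

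Nhp2, Nop10 and Gar1 are the small proteins that complete the box H/ACA core. Nhp2 (ENSMUSG00000001056, chromosome 11, 51619735 to 51623714, plus strand) had 189, 208 and 155 FPKM in oEV-EMT and 220, 137 and 186 in oEV-ctrl, with the oEV-EMT values inside the oEV-ctrl range. The log2 fold change of Nhp2 was 0.04 with a standard error of 0.23 (limma, adjusted p = 0.949), and its sign turned with the scaling. Nhp2 overlaps the opposite-strand gene Rmnd5b by 44 bases, whose values intermixed between the groups. Gar1 (ENSMUSG00000028010, chromosome 3, 129824912 to 129831396, minus strand) had 15.1, 8.02 and 10.3 FPKM in oEV-EMT and 16.04, 10.5 and 11.9 in oEV-ctrl. In each group the library numbered 1 was highest and the library numbered 2 lowest, and the log2 fold change was -0.21 with a standard error of 0.27 (limma, adjusted p = 0.741). Without oEV-EMT 2 it was -0.01, without oEV-ctrl 1 -0.05 and without oEV-EMT 1 -0.43, so the size for Gar1 rested on single libraries.

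Nop10 (ENSMUSG00000027133, chromosome 2, 112261926 to 112263269, plus strand) encodes the smallest of these proteins, which binds dyskerin directly. The FPKM of Nop10 was 191, 154 and 180 in oEV-EMT and 173, 281 and 239 in oEV-ctrl. The oEV-ctrl 2 and oEV-ctrl 3 values were above all others, whereas oEV-ctrl 1 lay among the oEV-EMT values. The log2 fold change was -0.37 with a standard error of 0.22, a 95% interval from -0.87 to 0.12 and an adjusted p of 0.447 (limma), and without oEV-ctrl 2 it was -0.22. Relative to the median of all genes it was -0.55, the lowest of the 10, and the interval of Nop10 was the only one that did not include that median. After median-of-ratios or upper quartile scaling the oEV-EMT group lay wholly below the oEV-ctrl group. With these scalings the same held for 1231 of 11921 and 1511 of 11966 genes tested, against 517 of 11924 without them.

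Ncl and Npm1 encode nucleolin and nucleophosmin, the abundant nucleolar proteins that bind precursor RNA, chaperone its packing and take part in the assembly of subunits. Ncl (ENSMUSG00000026234, chromosome 1, 86344719 to 86359400, minus strand) had 71.5, 61.6 and 60.2 FPKM in oEV-EMT and 128, 49.98 and 68.9 in oEV-ctrl. The oEV-ctrl group held both the highest and the lowest value of this gene, and oEV-ctrl 1 stood far above the rest. The difference, a log2 fold change of -0.24 (standard error 0.31, limma, adjusted p = 0.737), rested on that library and was 0.13 without it.

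Npm1 (ENSMUSG00000057113, chromosome 11, 33152287 to 33163206, minus strand) had 1121, 859 and 859 FPKM in oEV-EMT and 871, 852 and 919 in oEV-ctrl. Apart from oEV-EMT 1, the libraries lay within a narrow range, and the log2 fold change was 0.09 with a standard error of 0.18 (limma, adjusted p = 0.834), turning to -0.11 with median-of-ratios scaling. Stretches of 50 bases are shared with 6 processed pseudogenes, of which Gm14681 (264 to 322 FPKM) and Gm9118 (232 to 289 FPKM) had the highest values. Npm1 held 56.9% to 63.5% of the FPKM summed over the 7 genes, so its own level is uncertain. The log2 difference of that sum between the groups was 0.09, the same as for Npm1 alone.

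The proteins of a particle are needed in fixed proportion, so ratios between their transcripts were taken within each library, where the scaling between libraries cancels. Of 10 ratios computed, 8 overlapped between the groups. How often ratios between other genes lack overlap was not computed, so the remaining ratios have no background to be read against. Among single genes, 18.1% lay wholly higher and 4.34% wholly lower in oEV-EMT. The log2 ratio of Nop10 to Dkc1 was 1.41, 1.28 and 1.34 in oEV-EMT and 1.94, 2.26 and 2.02 in oEV-ctrl, a mean of 1.35 ± 0.06 against 2.07 ± 0.17 (SD, n = 3 each). Every oEV-EMT library thus had less Nop10 per Dkc1 than every oEV-ctrl library, and the group means differed by 0.73 on the log2 scale. The nearest libraries were oEV-EMT 1 at 1.41 and oEV-ctrl 1 at 1.94. Dkc1 was itself without overlap and Nop10 was the lowest of the 10 relative to all genes, so this ratio in part restates those differences. The log2 ratio of the mean of Nop56, Nop58 and Fbl to the mean of the 4 box H/ACA genes was -0.06, 0.31 and 0.20 in oEV-EMT and -0.09, -0.18 and -0.12 in oEV-ctrl. The groups did not overlap there either, but oEV-EMT 1 and oEV-ctrl 1 lay close together.
The groups overlapped in the other ratios. Among these, Gar1 to Dkc1 differed most between the groups, with a mean log2 ratio of -2.67 ± 0.38 in oEV-EMT and -2.10 ± 0.53 in oEV-ctrl (SD). The log2 ratio of Nop58 to Nop56 was -0.81, -0.48 and 0.26 in oEV-EMT and -1.38, -0.51 and -0.11 in oEV-ctrl. That of Fbl to Nop56 was the steadiest within the box C/D core, between -1.97 and -1.63 in all 6 libraries. In FPKM, Fbl was therefore at 0.255 to 0.323 of the Nop56 level in all 6 libraries. Both genes share sequence with other genes, as given above, so the ratio of the transcripts themselves is uncertain. The ratios share genes and were computed on the same 6 libraries, and they were given no p.

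**Figure D3:**
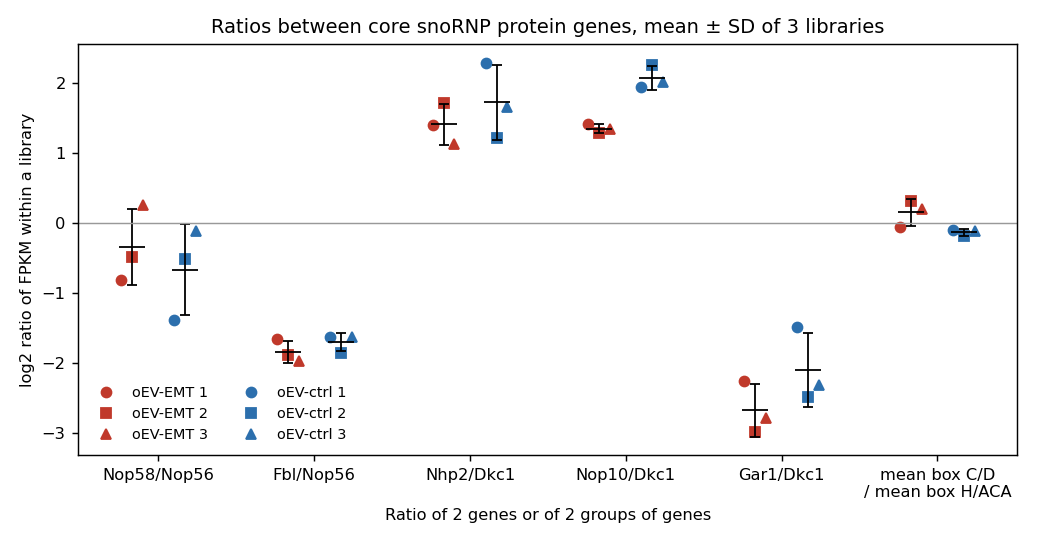
Log2 ratio of FPKM within a library (vertical axis) for 6 of the 10 ratios between core proteins of box C/D and box H/ACA particles, with 1 point per library (red for oEV-EMT, blue for oEV-ctrl) and the mean ± SD of 3 libraries. The groups are apart for Nop10/Dkc1, and narrowly so for the box C/D mean over the box H/ACA mean, and they overlap in the other 4.

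The 10 genes are a small part of ribosome biogenesis, and 171 further genes of the process were taken from lists of known factors, by step. Of these, 169 were tested, 0 were called, and 24 had an unadjusted p of at most 0.05 with higher values in oEV-EMT, against 0 with lower values. These shares, 14.2% and 0.0%, stand against 12.8% and 2.55% of all genes. The groups did not overlap in 32 with higher values, or 18.9%, close to the 18.1% of all genes, and in 0 with lower values. The median log2 fold change of the 169 relative to all genes was 0.05. Beyond a fixed set, the genes named below were picked for the smallest p among those without overlap. All of those were higher in oEV-EMT, so the picked values are high by selection and do not describe their list.

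Further genes of RNA polymerase I transcription, mostly subunits and initiation factors, numbered 14 in the list used, all tested. Their relative median was 0.20, and it was 0.07 without oEV-ctrl 2 and 0.10 without oEV-EMT 1. No overlap with higher values in oEV-EMT was seen in 5 of them, or 35.7% against 18.1% of all genes, and lower values throughout in 0, against 4.34%, in a list too short to read a share from. Rrn3, the factor that brings the polymerase to the promoter, had 41.4, 23.5 and 25.6 FPKM in oEV-EMT and 15.6, 16.1 and 22.2 in oEV-ctrl (log2 fold change 0.69). Taf1a, a subunit of the promoter selectivity factor, had a log2 fold change of 0.72, and Znrd1, a small subunit of the polymerase, one of 0.49. By contrast Polr1b, the second largest subunit and the partner of Polr1a, had 7.85, 4.37 and 3.25 FPKM in oEV-EMT and 5.49, 2.47 and 4.31 in oEV-ctrl, with the groups intermixed. Ubtf, which binds along the ribosomal DNA, had a log2 fold change of 0.04.

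Of 9 partners and assembly factors of box C/D particles, 3 had no overlap and were higher in oEV-EMT, or 33.3% against 18.1% of all genes. The relative median was 0.15, and 0.04 without oEV-EMT 2. Snu13, the core protein that first binds the box C/D RNA, had 229, 234 and 290 FPKM in oEV-EMT and 149, 181 and 210 in oEV-ctrl (log2 fold change 0.48). Ruvbl2, an ATPase used in assembly, had a log2 fold change of 0.65 and Nufip1, an assembly platform, one of 0.40.

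Of 7 assembly factors and chaperones tied to box H/ACA particles, 2 had no overlap and were higher in oEV-EMT, or 28.6% against 18.1% of all genes. The relative median was 0.19, and -0.06 without oEV-EMT 1. Coil, the scaffold of Cajal bodies, had 98.5, 57.4 and 46.6 FPKM in oEV-EMT and 25.1, 30.2 and 29.9 in oEV-ctrl. Its log2 fold change of 1.15 and adjusted p of 0.152 (limma) were the largest and the smallest of the 169 genes, and the p missed the threshold. Wrap53, which brings RNAs to Cajal bodies, had a log2 fold change of 0.74. The assembly factors that act on dyskerin were low and variable. Naf1 had 2.31, 1.39 and 2.32 FPKM in oEV-EMT and 4.17, 2.33 and 2.24 in oEV-ctrl, and Shq1 spread from 1.51 to 7.85 FPKM within oEV-EMT alone. Nolc1 and Tcof1, the nucleolar phosphoproteins, had log2 fold changes of 0.36 and 0.07 with overlapping groups.

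In the small-subunit processome, 57 of 58 genes were tested, 11 had no overlap with higher values in oEV-EMT, or 19.3% against 18.1% of all genes, and the relative median was 0.03, turning to -0.07 without oEV-EMT 1. The genes with the smallest p were Rcl1 (log2 fold change 0.82), Noc4l (0.65) and Utp4 (0.58), whereas the helicase gene Ddx21 had 0.05. In large-subunit assembly, 66 of 67 were tested, 9 had no overlap with higher values in oEV-EMT, or 13.6%, and the relative median was also 0.03, turning to -0.03 without oEV-ctrl 2. Gnl3, which encodes nucleostemin, had 191, 117 and 119 FPKM in oEV-EMT and 92.1, 100.3 and 97.0 in oEV-ctrl (log2 fold change 0.52). Gnl3l, Pelp1 and Tma16 had 0.86, 0.63 and 0.55, and Nop2, an RNA methyltransferase, had 0.64 with overlapping groups. Of 16 genes of the RNA exosome and its cofactors, which trim the precursor, Exosc5 (0.69) and Exosc10 (0.67) had no overlap, or 12.5% of the list, and the relative median was -0.05, turning to 0.03 without oEV-EMT 1.

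**Figure D4:**
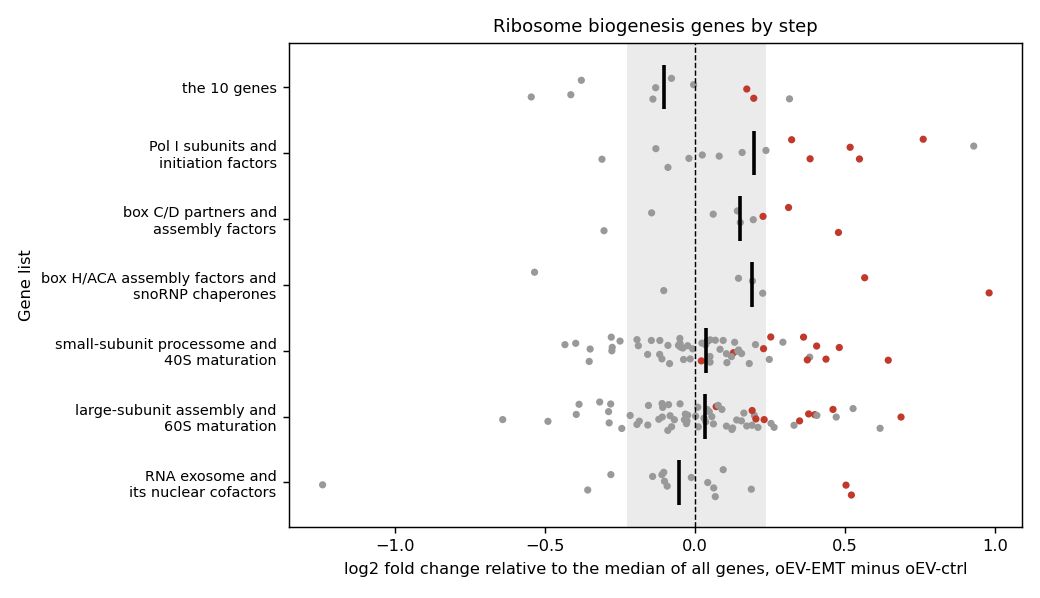
Log2 fold change relative to the median of all genes, oEV-EMT minus oEV-ctrl, for the 10 genes and for 6 lists of further ribosome biogenesis genes, with 1 point per gene, red where the groups did not overlap and higher in oEV-EMT, and a black line at the median of the list. Grey marks the middle 50% of all genes tested, and the medians of all 7 rows lie inside it.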

How the data were processed

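Expression values of 6 libraries, oEV-EMT 1 to 3 and oEV-ctrl 1 to 3, were taken from 1 table of 55774 genes. According to the submitters' processing notes and the methods, the authors assembled the reads with StringTie on mm10 and used DESeq2 for their own list. The aligner and versions are not given in the sources used here. The methods speak of TPM, but the deposited values sum to more than 1000000 and were taken as FPKM, relative to the fragments of each library. Names and coordinates came from GENCODE M21 (GRCm38, the same assembly as mm10), which matched 55227 of 55487 Ensembl identifiers.

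Genes that reached 1 FPKM in 3 or more libraries were fitted as log2(FPKM + 1) with limma 3.58.1 in R 4.3.3 (trended, robust variance, Benjamini-Hochberg adjustment). The fit was tested on simulated data with the spread of these libraries, where it found large changes but missed changes of the size of the fold threshold. The groups come from the sample titles. Absolute depth is unknown. Sequence sharing was searched in stretches of 50 bases, with a minimum of 10% of either gene's stretches in common. Relative depth was read from values up to 0.1 FPKM.

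The genes named are the 10, a fixed set of further genes (Polr1b, Ubtf, Rrn3, Snu13, Naf1, Shq1, Nolc1, Tcof1, Ddx21, Gnl3, Nop2, Exosc10) and up to 3 per list with the smallest p among those without overlap. The members and lists were chosen with earlier results of these data known. Alternatives covered scaling, filter, pseudocount, variance, a replicate block, leaving out each library and, chosen after seeing the data, transcript length. The length correction was run with 2 definitions of transcript length. The first used the longest coding transcript, and the second, the principal transcript by APPRIS, was added after the values under the first had been seen. Both are given. Plots were made with matplotlib 3.10.9 (Python 3.11.15).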

Additional observations from a re-analysis of the deposited data

How the results depend on the processing

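Across the 17 alternatives no gene of the 10 passed the adjusted threshold. Over all genes, 0 passed both thresholds as reported, 21 with a replicate block and 0 to 16 with 1 library left out, the 16 without oEV-ctrl 3. Same-numbered libraries correlated at 0.119, -0.0442 and 0.0388 in their deviations across genes, so the numbers were not taken to pair them. Genes with an unadjusted p of at most 0.05 and higher in oEV-EMT numbered 758 with median-of-ratios and 536 with upper quartile scaling (937 to 1636 with 1 library left out), and those lower numbered 768 and 972, 182 with a total of 1000000 and 570 without a filter (193 to 563). Without overlap, 1158 and 887 genes were higher (2580 to 3577) and 1231 and 1511 lower, 307 with a total of 1000000 and 1107 without a filter (685 to 1455).

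With median-of-ratios and upper quartile scaling, log2 fold changes turned to -0.16 and -0.23 for Fbl, -0.11 and -0.17 for Npm1, -0.0305 and -0.10 for Nop56, and -0.16 and -0.23 for Nhp2. With a total of 1000000 without new_gene48 they were -0.0119 for Fbl and -0.0036 for Nhp2. With 1 library left out they lay between -0.0920 and 0.19 for Fbl, -0.0351 and 0.16 for Npm1, -0.15 and 0.20 for Nhp2, and -0.54 and 0.13 for Ncl. Without a filter the relative median was 0.34 for the box H/ACA assembly list and 0.18 for the small-subunit list, and with 1 library left out it lay between -0.0624 and 0.35 and between -0.0733 and 0.10. It lay between 0.07 and 0.27 for the RNA polymerase I list, 0.04 and 0.22 for the box C/D list, -0.03 and 0.11 for the large-subunit list and -0.13 and 0.03 for the exosome list, and between -0.16 and 0.04 for the 10 genes, whose relative median was 0.04 without a filter. With median-of-ratios and upper quartile scaling, Gar1 was at -0.39 and -0.45, Ncl at -0.44 and -0.51 and Nop10 at -0.57 and -0.64. The cause was not tested.

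The correction for transcript length, chosen after seeing the data, depended on how length was defined. With the longest transcript and then with the principal transcript, the log2 fold change was 0.66 and 0.36 for Nop58, which has 9507 or 1713 bases by these definitions. It was -0.0480 and -0.0526 for Fbl, -0.0271 and -0.0309 for Npm1, -0.0192 and -0.0256 for Nhp2, and 0.54 and 0.54 for Polr1a, whose unadjusted p of 0.0197 and 0.0203 then passed 0.05, with adjusted p of 0.256 in both (limma). The second definition was added after the values under the first were known, and neither is preferred here. Polr1a could not be fitted with a filter of 5 FPKM. Read totals are unknown, so no counting interval could be given.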
